A study of Mus musculus with 5 samples.

Results

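Aminoacyl-tRNA synthetases are the enzymes that join each amino acid to its tRNA. Their genes were taken from the array by symbol: any 1-letter amino acid code followed by "ars", with or without a final 1 or 2, together with Farsa, Farsb and Eprs. This gave 35 genes of the 18193 on the array, 19 for cytosolic enzymes and 16 for mitochondrial ones, with mitochondrial meaning a symbol that ends in 2. They were measured by 72 probe sets, and for each gene the one with the highest mean signal was used.

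The cells were mouse embryonic stem cells that had been differentiated on gelatin, by a protocol aimed at pancreatic cells. The groups, with 1 array each, were cells at day 6 that had received 2 µM MPA from day 5, cells at day 8 that had received 2 µM MPA from day 5, and cells without MPA at day 5, day 6 and day 8 (the controls). The labels do not write MPA out, and they name no strain, line or genetic change. There are no replicates, so a difference between 2 arrays is given by its size alone, and precision is limited by the number of arrays.

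Each tRNA must carry the right amino acid before the ribosome can use it, and a cell needs 1 set of synthetases in the cytosol and another in the mitochondrion. Both sets are encoded in the nucleus. Gars and Kars, for glycine and lysine, make the enzymes of both places from 1 gene, and mitochondria make glutaminyl-tRNA by converting the glutamate on a mischarged tRNA through the amidotransferase of Gatb, Gatc and Qrsl1. In the cytosol several synthetases sit in a multi-enzyme complex held by the scaffold proteins of Aimp1, Aimp2 and Eef1e1. Many cytosolic synthetase genes are known targets of ATF4, the transcription factor that is made when amino acids run short, and ATF4 binds with C/EBP partners at a composite response element.

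Of the 12 cytosolic genes whose promoter sequence was at hand, 5 carry the core letters of that element near their start. Their promoters are shown because this is a sequence feature on which the cytosolic and mitochondrial sets can be compared apart from any signal. The sequences are RefSeq's, of build GRCm38.p6, read 5′ to 3′ along the gene, from 250 bases before the start to 50 after it. Capitals mark the core TGATGNAA, which reads TTGCATCA or TTTCATCA where it lies on the opposite strand, and the E-box CACGTG, which basic helix-loop-helix proteins such as Myc bind. The mitochondrial counterparts Aars2 and Iars2 are shown with them and hold neither motif.
Aars (chr8:111033592-111033891, + strand): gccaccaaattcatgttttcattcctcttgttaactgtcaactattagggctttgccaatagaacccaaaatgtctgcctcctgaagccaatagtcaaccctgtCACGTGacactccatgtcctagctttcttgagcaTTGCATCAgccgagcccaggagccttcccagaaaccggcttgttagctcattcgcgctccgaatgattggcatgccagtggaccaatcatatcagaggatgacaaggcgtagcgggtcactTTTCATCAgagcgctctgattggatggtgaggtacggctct
Gars (chr6:55037751-55038050, + strand): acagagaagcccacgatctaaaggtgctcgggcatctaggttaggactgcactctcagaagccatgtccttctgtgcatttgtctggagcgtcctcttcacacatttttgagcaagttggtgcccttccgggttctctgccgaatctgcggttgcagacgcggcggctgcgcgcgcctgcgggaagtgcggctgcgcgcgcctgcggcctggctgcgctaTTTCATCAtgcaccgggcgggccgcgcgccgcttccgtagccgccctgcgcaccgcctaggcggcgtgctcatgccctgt
Iars (chr13:49681880-49682179, + strand): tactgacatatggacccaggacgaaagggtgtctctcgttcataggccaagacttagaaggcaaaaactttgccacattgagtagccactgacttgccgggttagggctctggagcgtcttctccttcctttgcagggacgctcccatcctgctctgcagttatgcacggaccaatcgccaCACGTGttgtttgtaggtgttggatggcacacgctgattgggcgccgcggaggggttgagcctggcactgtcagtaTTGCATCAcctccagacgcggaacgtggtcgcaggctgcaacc
Tars (chr15:11399609-11399908, - strand): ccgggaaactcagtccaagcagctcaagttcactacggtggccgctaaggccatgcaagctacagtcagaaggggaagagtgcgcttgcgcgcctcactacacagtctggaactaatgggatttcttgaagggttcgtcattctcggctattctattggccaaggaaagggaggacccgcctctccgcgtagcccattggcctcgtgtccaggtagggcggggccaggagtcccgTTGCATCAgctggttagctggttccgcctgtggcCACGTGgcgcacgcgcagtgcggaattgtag
Yars (chr4:129189653-129189952, + strand): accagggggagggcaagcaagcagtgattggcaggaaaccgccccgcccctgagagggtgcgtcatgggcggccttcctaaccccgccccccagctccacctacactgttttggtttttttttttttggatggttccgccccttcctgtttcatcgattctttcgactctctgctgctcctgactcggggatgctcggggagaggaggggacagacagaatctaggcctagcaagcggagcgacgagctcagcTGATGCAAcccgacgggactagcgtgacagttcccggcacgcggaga
Aars2 (chr17:45506582-45506881, + strand): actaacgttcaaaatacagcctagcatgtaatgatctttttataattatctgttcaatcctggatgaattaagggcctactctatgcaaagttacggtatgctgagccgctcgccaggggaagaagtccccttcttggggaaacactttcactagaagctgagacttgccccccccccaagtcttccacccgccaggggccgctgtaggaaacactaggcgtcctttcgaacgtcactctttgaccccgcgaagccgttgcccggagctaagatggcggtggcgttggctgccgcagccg
Iars2 (chr1:185329352-185329651, - strand): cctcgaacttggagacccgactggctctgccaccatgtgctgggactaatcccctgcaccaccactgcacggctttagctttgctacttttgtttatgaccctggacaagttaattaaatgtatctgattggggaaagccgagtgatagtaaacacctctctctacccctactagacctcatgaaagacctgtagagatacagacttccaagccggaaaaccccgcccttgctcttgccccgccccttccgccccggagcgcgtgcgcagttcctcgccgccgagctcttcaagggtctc

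Both strands were searched, and in these windows no match of one motif overlapped one of the other. The core lay in the windows of 5 of the 12 cytosolic genes in the promoter table, Aars, Gars, Iars, Tars and Yars, and in 0 of the 14 mitochondrial ones. It was found for 4.51% of the 27025 genes with such a window. All 5 belong to the known ATF4 targets, of which 8 were in the table. Cars, Hars, Lars, Nars, Rars, Vars and Wars, and the mitochondrial Hars2 and Pars2, were not in it and were not searched. In Yars the core began 3 bases after the start, in Iars 7 bases after it, in Tars 15 and in Gars 30 bases before it. Aars held it at 112 bases before and again at 9 bases after the start. The E-box lay in 4 of the 12 cytosolic windows (Aars, Farsb, Iars and Tars) and in 1 of the 14 mitochondrial ones (Ears2), against 8.09% of all genes. A match is a run of letters and does not show that a factor binds there.

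All arrays had been scaled to the same trimmed mean. The median probe-set signal of 86.76 served as a floor, to which dimmer signals were set before taking log2. For a comparison a gene had to exceed the floor on 1 or both of the arrays compared, and such genes are called measured. All 19 cytosolic genes lay above the floor on all 5 arrays, and 13 of the 16 mitochondrial ones did. Pars2, the mitochondrial proline enzyme, was under it with MPA at day 6, and Sars2, of serine, lay above it at day 5 and in the day 8 control only. Mars2, of methionine, lay above it in the MPA culture of day 6 only, at a signal of 103. For Gapdh the ratio of 3' to 5' probe-set signal, which rises as RNA degrades, was 1.31 with MPA and 1.19 without at day 6, and 1.57 with MPA and 1.55 without at day 8. That of Actb was 3.06 with MPA and 3.04 without at day 6, and 2.71 with MPA and 2.81 without at day 8. The day 5 control had the lowest ratios, 1.08 for Gapdh and 2.08 for Actb.

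Markers of several cell types were above the floor. Of the 9 pancreas markers measured, 8 were above the floor with MPA and 7 without at day 8, and their summed signal was 5409 with MPA and 1500 without. The 8 definitive endoderm markers summed to 18499 with MPA and 11402 without at day 6, and to 18237 with MPA and 11010 without at day 8. The 10 neural markers summed to a lower signal, 810 with MPA and 2305 without at day 6 (4 with MPA and 6 without above the floor), and to 2179 with MPA and 11499 without at day 8 (6 with MPA and 9 without above it). Neurog2 was under the floor on every array. Pluripotency markers (7 genes) summed to 2762 with MPA and 4520 without at day 6, and to 3009 with MPA and 5266 without at day 8, and had 33033 at day 5. Cardiac muscle markers (6 genes, Tnnt2 under the floor throughout) summed to 356 with MPA and 518 without at day 6, and to 7108 with MPA and 2633 without at day 8. Extraembryonic endoderm markers (6 genes) summed to 3123 with MPA and 958 without at day 6, and to 2879 with MPA and 2290 without at day 8. Mesenchyme markers (7 genes) were nearest between the cultures, with 3250 with MPA and 3346 without at day 6, and 12729 with MPA and 12243 without at day 8. The part of these cell types in the synthetase differences was not tested, and in such mixed cultures fewer cells of a type and less RNA per cell cannot be told apart.

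The first comparison is that of MPA with the control of the same day. Cytosolic synthetase genes were mostly lower with MPA. On day 6 the MPA culture had lower signals for 15 of 19 and higher ones for 4 (median log2 difference -0.26), where 48.5% of all measured genes were lower, 51.5% were higher and the median was 0.02. On day 8 it had lower signals for 17 of 19 and higher ones for 2 (median -0.37), where 51.9% of all genes were lower, 48.1% were higher and the median was -0.02. The summed signal of the 19 genes with MPA was 0.857 of that without at day 6 and 0.760 at day 8. Mitochondrial genes were split, with 7 of 15 lower at day 6 (median 0.07, below 0 under some other scalings and floors) and 8 of 15 lower at day 8 (median -0.17). The day 8 median is the value of Sars2, a bound set by the floor. With the 13 genes above the floor on all 5 arrays it was 0.0004, and 6 of 13 were lower. The summed signal of the mitochondrial genes with MPA was 1.07 of that without at day 6 and 0.889 at day 8.

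The differences were small in size. At day 6, 2 cytosolic and 2 mitochondrial genes were lower by 1.5-fold or more and 0 of either were higher by as much, where 10.8% of all genes were lower by 1.5-fold or more and 12.8% higher. At day 8 the counts were 3 cytosolic and 3 mitochondrial genes lower by 1.5-fold or more, and 0 cytosolic and 2 mitochondrial genes higher, against backgrounds of 11.2% lower and 11.4% higher. Aars2 at day 6 was the 1 synthetase gene that was 2-fold apart, where 7.17% of all genes were, and at day 8 there were 0, where 6.91% were. The counts of cytosolic genes lower by 1.5-fold or more were thus near the share of all genes, and none was higher by as much on either day.

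**Figure D1:**
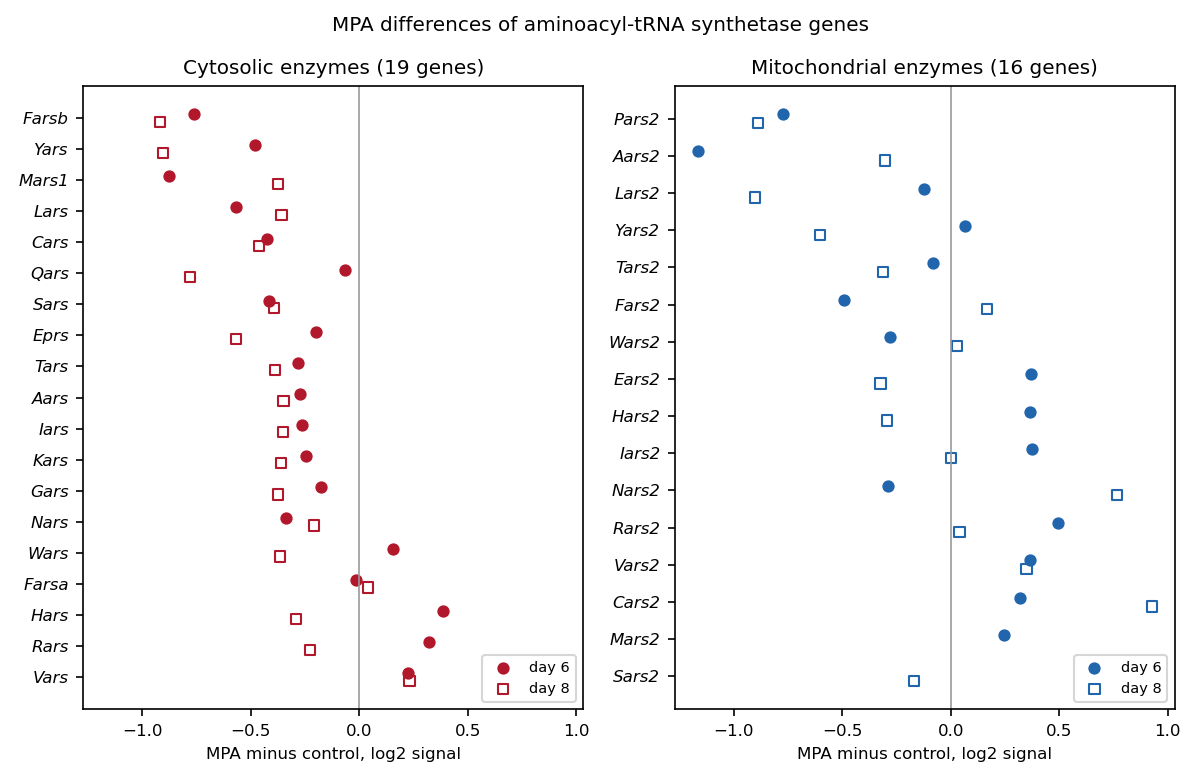
MPA minus control on the log2 signal scale for each synthetase gene, cytosolic genes on the left and mitochondrial genes on the right, with filled circles for day 6 and open squares for day 8. Of the cytosolic genes 15 of 19 lie left of 0 at day 6 and 17 of 19 at day 8, while the mitochondrial ones spread to both sides. Each point is a difference of 2 arrays, and Mars2 and Sars2 have 1 point each.

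Of the genes measured at both days, 14 of 19 cytosolic ones were lower at both, 1 was higher at both (Vars, of valine) and 4 differed in sign (Farsa, Hars, Rars and Wars). Over all genes 25.8% were lower at both days and 27.3% higher at both. Of the mitochondrial genes 4 of 14 were lower at both days (Aars2, Lars2, Pars2 and Tars2), 4 were higher at both (Cars2, Iars2, Rars2 and Vars2) and 6 differed in sign. The other Tars2 probe set, also above the floor on all 5 arrays, was not lower, with log2 differences of 0.63 and 0.0035. That of Iars2 was higher at both days, like the one used. Farsb and Pars2 were lower by 1.5-fold or more at both days, where 2.11% of all genes were. The 14 cytosolic genes with a mean signal of 2000 or more were lower in 12 cases at day 6 and in all 14 at day 8, the quartiles of their day 8 difference being -0.39 and -0.35. Of all genes that bright, 55.6% were lower at day 6 and 57.1% at day 8. The cut at 2000 was not among the planned comparisons. It leaves out Vars and Farsa, the cytosolic genes that were higher with MPA at day 8.

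Farsb encodes the beta subunit of the phenylalanine enzyme and was the cytosolic gene with the lowest mean difference. Its signal was 3010 with MPA and 5102 without at day 6, and 2020 with MPA and 3814 without at day 8, and the day 5 control had 4061. It was 1.70-fold and 1.89-fold lower, and 2 further probe sets of the gene that lay above the floor on all 5 arrays were lower at both days too. Farsa, which encodes the alpha subunit of the same enzyme, had 938 with MPA and 947 without at day 6 and 1077 with MPA and 1048 without at day 8. Its log2 differences were -0.02 and 0.04, so the probe sets of the 2 subunits did not move alike.

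Mars1, of methionine, whose enzyme also charges the initiator tRNA, had a signal of 3752 with MPA and 6888 without at day 6, and 4058 with MPA and 5264 without at day 8, and the day 5 control had 7523. It was 1.84-fold and 1.30-fold lower. Yars, of tyrosine, had 401 with MPA and 559 without at day 6, and 364 with MPA and 681 without at day 8, which is 1.39-fold and 1.87-fold lower, and the day 5 control had 843. Lars, of leucine, whose enzyme also senses leucine for the mTORC1 pathway, had 3470 with MPA and 5144 without at day 6, and 3197 with MPA and 4099 without at day 8, and the day 5 control had 5511. All 3 genes were lower with MPA on both days, Mars1 and Lars more so at day 6 and Yars at day 8.

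Cars (cysteine), Sars (serine), Tars (threonine), Aars (alanine), Iars (isoleucine), Kars (lysine), Gars (glycine) and Nars (asparagine) were lower by 1.13-fold to 1.34-fold at day 6 and by 1.15-fold to 1.38-fold at day 8. Sars, for example, had 2696 with MPA and 3593 without at day 6, and 2733 with MPA and 3585 without at day 8. Its other probe set had log2 differences of -0.89 and -0.03, so the size at each day differed between the probe sets. The other probe sets of Nars (-0.63 and -0.02), Aars (-0.34 and -0.17) and Iars (-0.35 and -0.22) were lower at both days too. Gars had 8879 with MPA and 10046 without at day 6, and 5375 with MPA and 6961 without at day 8. Eprs, whose product charges both glutamate and proline tRNAs, had 4794 with MPA and 5506 without at day 6, and 4167 with MPA and 6177 without at day 8. Its 2 further probe sets above the floor were lower at both days as well.

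Qars, of glutamine, was lower by 1.04-fold at day 6 and by 1.72-fold at day 8 on its brightest probe set, with 4180 with MPA and 4368 without at day 6, and 3415 with MPA and 5858 without at day 8. Of its other probe sets above the floor on all 5 arrays, 1 had log2 differences of -0.05 and -0.17, and another had 0.92 and -0.33. Hars (histidine) and Rars (arginine) were higher with MPA at day 6 and lower at day 8. Rars had 8658 with MPA and 6919 without at day 6, and 5154 with MPA and 6035 without at day 8. Wars, of tryptophan, which interferon also induces, was 1.11-fold higher at day 6 and 1.29-fold lower at day 8. Its 3 further probe sets above the floor were all lower at day 8, and 1 of the 3 was lower at day 6. Vars had 463 with MPA and 396 without at day 6, and 478 with MPA and 408 without at day 8. Over the cytosolic genes 14 further probe sets lay above the floor on all 5 arrays, 10 of them lower at day 6 and 14 at day 8.

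Among the mitochondrial genes, Aars2 (alanine) had the largest difference of any synthetase gene at 1 day. Its signal was 138 with MPA and 309 without at day 6, and 260 with MPA and 321 without at day 8, which is 2.25-fold and 1.23-fold lower, and the day 5 control had 248. Pars2 had 64.2 with MPA, below the floor, and 148 without at day 6, and 118 with MPA and 218 without at day 8, and its day 5 signal was 316. The day 6 difference is a bound, at least 1.71-fold lower, and the day 8 one was 1.85-fold. Lars2, of leucine, had 967 with MPA and 1053 without at day 6, and 480 with MPA and 898 without at day 8. Yars2, of tyrosine, had 1102 with MPA and 1053 without at day 6, and 741 with MPA and 1125 without at day 8, while its other probe set above the floor was higher at day 6 by 0.42 and differed by 0.01 at day 8. Of these 4 genes 3 were lower with MPA at both days and Yars2 was lower at day 8.

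Cars2, of cysteine, went the other way. It had 289 with MPA and 232 without at day 6, and 207 with MPA and 109 without at day 8, and was 1.25-fold and 1.90-fold higher, while the day 5 control had 210. Rars2, of arginine, had 1760 with MPA and 1250 without at day 6 and 902 with MPA and 878 without at day 8. Iars2, of isoleucine, had 1217 with MPA and 937 without at day 6 and 731.9 with MPA and 731.7 without at day 8. Nars2, of asparagine, had 481 with MPA and 588 without at day 6, and 709 with MPA and 417 without at day 8. Vars2, of valine, was higher at both days by 1.29-fold and 1.27-fold, on signals from 112 to 168. Ears2 (glutamate), Fars2 (phenylalanine), Tars2 (threonine) and Wars2 (tryptophan) differed by 1.06-fold to 1.41-fold at day 6 and by 1.02-fold to 1.25-fold at day 8, in both directions. Only 4 further mitochondrial probe sets lay above the floor on all 5 arrays, and 2 of them at day 6 and 1 at day 8 went the way of the probe set used. Their log2 differences were 0.25 and -0.52 for Fars2, where the probe set used had -0.49 and 0.17, and 0.63 and 0.0035 for Tars2. For Iars2 they were 0.40 and 0.24, and for Yars2 0.42 and 0.01.

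The genes for the same amino acid in the 2 compartments allow a pairwise view. In 16 pairs measured at each day, the cytosolic gene had the lower MPA difference in 11 at day 6 and in 13 at day 8, Eprs and Fars2 standing in 2 pairs each. The values of Mars2 and Pars2 at day 6 and of Sars2 at day 8 in these pairs are bounds set by the floor. Cysteine was the pair furthest apart at day 8, with log2 differences of -0.46 for Cars and 0.93 for Cars2. Histidine was the nearest at both days: Hars had 0.39 and -0.29, and Hars2, its neighbour in the genome, 0.37 and -0.29. Hars had 5702 with MPA and 4365 without at day 6, and 4848 with MPA and 5932 without at day 8, and Hars2 had 552 with MPA and 428 without at day 6 and 399 with MPA and 489 without at day 8.

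Signal strength differed between the compartments, and it bears on how much a difference of 2 arrays says. The mitochondrial genes had 8 members with a mean signal of 300 to 1500 and the cytosolic ones 5. Within that range, which was chosen after the values were seen, 3 of 5 cytosolic and 4 of 8 mitochondrial genes were lower at day 6 (medians -0.02 and -0.01), and again 3 of 5 and 4 of 8 at day 8 (medians -0.37 and -0.15). All genes in that signal range were lower in 41.2% of cases at day 6 and 49.0% at day 8. Compartment and signal strength thus moved together, and the part of signal strength in the contrast was not tested.

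**Figure D2:**
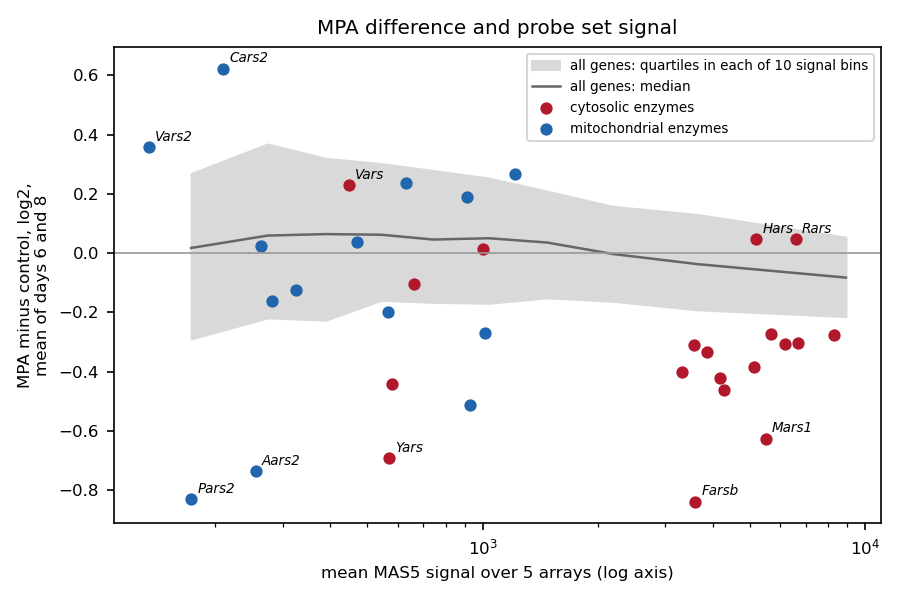
The MPA difference averaged over days 6 and 8 (log2, vertical axis) against the mean signal of the probe set over the 5 arrays (log axis) for 33 synthetase genes measured at both days, cytosolic in red and mitochondrial in blue. The grey line and band give the median and quartiles of all genes above the floor on the 4 arrays of days 6 and 8, in 10 bins of signal. In the brightest bin the median is -0.08 and the lower quartile -0.21, and the bright cytosolic genes other than Hars and Rars lie below the band.

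A limma fit that took day as a factor, on the 4 arrays from days 6 and 8, asked which genes differed alike at both days. It has 1 residual degree of freedom, from the disagreement of the days. The SE and p also draw on the variance of other genes of like signal, so they do not measure that disagreement gene by gene. Of 33 synthetase genes tested 0 passed at an adjusted p under 0.05, where 1 of 11599 genes did (0.00862%). At an unadjusted p under 0.05 there were 4, all lower, against 6.37% of all genes in either direction and 3% lower. They were Farsb, whose log2 difference was -0.84 (SE 0.195, lower at both days, limma adjusted p 0.493), Mars1 at -0.63 (SE 0.199, adjusted p 0.647), Lars at -0.46 (SE 0.191, adjusted p 0.751) and Pars2 at -0.83 (SE 0.353, adjusted p 0.772).

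The cytosolic genes were further divided by what is known of them, and the ATF4 division was chosen with earlier results of these data known. Over all genes 48.5% were lower at day 6, 51.9% at day 8 and 25.8% at both. Of the 13 known ATF4 targets (Aars, Cars, Eprs, Gars, Iars, Lars, Mars1, Nars, Sars, Tars, Vars, Wars and Yars) 11 were lower at day 6 and 12 at day 8, with medians of -0.28 and -0.37. Of the other 6 (Farsa, Farsb, Hars, Kars, Qars and Rars) 4 were lower at day 6 and 5 at day 8, with medians of -0.04 and -0.33. The day 8 means were -0.37 for the targets and -0.42 for the others. Of the targets 11 of 13 were lower at both days, and of the others 3 of 6. The 5 genes with the response element core lay between -0.48 and -0.18 at day 6 and between -0.90 and -0.35 at day 8. The 7 cytosolic genes whose windows lacked it lay between -0.88 and -0.02 and between -0.92 and 0.04, so that the ranges overlapped. Of the 7 genes whose enzymes sit in the multi-synthetase complex (Eprs, Iars, Kars, Lars, Mars1, Qars and Rars), 6 were lower at day 6 and 7 at day 8, and of the 12 outside it 9 and 10. Class I and class II enzymes, which differ in the fold of the catalytic domain, had cytosolic medians of -0.26 and -0.27 at day 6 and -0.37 and -0.36 at day 8.

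Genes that work with the synthetases were split in direction. Of 16 partner genes measured at day 6, 6 were lower (median 0.03), where 48.5% of all genes were. Of 15 at day 8, 9 were lower (median -0.23), where 51.9% of all genes were. Dtd1, which encodes a proofreading enzyme that removes D-amino acids from tRNA, was the one furthest from 0, with 835 with MPA and 1584 without at day 6 and 613 with MPA and 989 without at day 8. Tarsl2, of a second threonyl-tRNA synthetase, was 1.19-fold and 1.68-fold lower, and Aarsd1, of an alanyl-tRNA editing protein, 1.12-fold and 1.22-fold lower. The scaffold genes of the synthetase complex, named here after their values were seen, had log2 differences of -0.0016 (Aimp1), 0.22 (Aimp2) and -0.06 (Eef1e1) at day 6 and of -0.26, -0.14 and -0.23 at day 8. Pstk and Sepsecs, of the route to selenocysteine tRNA, were higher by 1.06-fold to 1.18-fold at the 2 days. Gatc differed by 0.01 and 0.37.

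The wider amino acid response list, which was drawn up with the MPA difference of such genes known, had a median further below 0 than the synthetases. Lower signals with MPA were seen for 21 of 26 measured members at day 6 (median -0.76), where 48.5% of all genes were lower. At day 8 they were seen again for 21 of 26 (median -0.45), where 51.9% of all genes were lower. Atf4 itself, named after its values were seen, had 2541 with MPA and 3725 without at day 6 and 4669 with MPA and 6385 without at day 8. Cth, of cystathionine gamma-lyase, had 541 with MPA and 1128 without at day 6 and 324 with MPA and 832 without at day 8. Chac1, of a glutathione-degrading enzyme, had 130 with MPA and 403 without at day 6 and 484 with MPA and 660 without at day 8, and the neutral amino acid transporter gene Slc1a4 had 200 with MPA and 503 without at day 6 and 622 with MPA and 1013 without at day 8. Of the 26 members 16 were lower at both days, where 25.8% of all genes were, and 0 were higher at both. The other 10 differed in sign, where 46.9% of all genes did. Of these 10, Ddit4 had log2 differences of -1.58 and 1.47 and Vldlr of -2.12 and 0.95, both named after their values were seen.

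**Figure D3:**
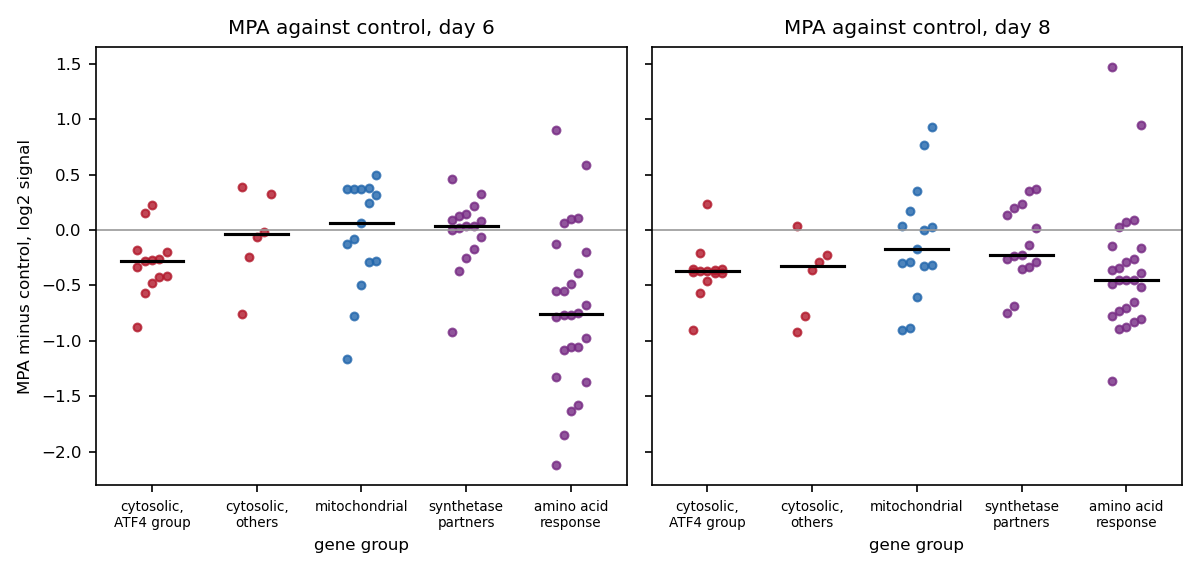
MPA minus control on the log2 signal scale at day 6 (left) and day 8 (right) for 5 groups of genes, 1 point per gene, with the median of each group as a black bar. The medians of the known ATF4 targets among the cytosolic synthetases are -0.28 and -0.37, those of the mitochondrial genes 0.07 and -0.17, and those of the amino acid response list -0.76 and -0.45. The -0.17 is the value of Sars2, a bound set by the floor.

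The controls give the same genes over time without MPA. These comparisons share their day 6 and day 8 control arrays with those above, so the values are set side by side only. The 3' to 5' ratios of Gapdh and Actb were lowest at day 5 (1.08 and 2.08). In the day 6 control they were 1.19 and 3.04, and in the day 8 control 1.55 and 2.81. The part of RNA quality in the differences from day 5 was not tested. At day 6 against day 5, 15 of 19 cytosolic and 11 of 15 mitochondrial genes were lower, with medians of -0.14 and -0.21, where 48.4% of all genes were lower and 51.6% higher. Pars2 was the 1 synthetase gene 2-fold apart, where 9.86% of all genes were. Thus at this step both compartments lay on the lower side. Of the known ATF4 targets 12 of 13 were lower, and Eprs alone was higher. Cars had 491 at day 6 and 812 at day 5, Yars had 559 at day 6 and 843 at day 5, Nars2 had 588 at day 6 and 965 at day 5, and Pars2 had 148 at day 6 and 316 at day 5. Qars and Farsb were higher at day 6, by 1.41-fold and 1.26-fold, on their brightest probe sets. Other Qars probe sets above the floor on all 5 arrays were not higher. The brighter had 2029 at day 6 and 2036 at day 5, and the dimmer 335 at day 6 and 519 at day 5. Those of Farsb were higher by less, with 3410 at day 6 and 3239 at day 5, and 1491 at day 6 and 1432 at day 5.

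At day 8 against day 6 in the controls the genes split evenly, with 9 of 19 cytosolic and 8 of 15 mitochondrial genes lower, where 48.7% of all genes were lower and 51.3% higher, and medians of 0.04 and -0.19. Wars had 932 at day 8 and 491 at day 6, and Wars2 had 440 at day 8 and 244 at day 6, so that both tryptophan enzymes were higher, by 1.90-fold and 1.80-fold. Cars was 1.46-fold higher and stood near its day 5 signal again. Cars2 had 109 at day 8 and 232 at day 6, Gars had 6961 at day 8 and 10046 at day 6, and Kars had 5853 at day 8 and 7886 at day 6, and these 3 were lower.

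Over the whole span, day 8 against day 5, 13 of 19 cytosolic and 9 of 15 mitochondrial genes were lower, where 47.4% of all genes were lower and 52.6% higher, with medians of -0.17 and -0.35. Nars2 was 2.31-fold lower at day 8 than at day 5 and the one synthetase gene that was 2-fold apart, where 16.9% of all genes were. Qars was 1.89-fold higher, with 5858 at day 8 and 3105 at day 5, and with Wars2 (1.52-fold) made up the genes higher by 1.5-fold or more, where 20.2% of all genes were. Its second brightest probe set had 1954 at day 8 and 2036 at day 5. Gars and Kars, the 2 genes that serve both compartments, were each lower by 1.46-fold.

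In the cultures with MPA, day 8 against day 6, 12 of 19 cytosolic and 10 of 15 mitochondrial genes were lower, with medians of -0.12 and -0.25, where 52.3% of all genes were lower and 47.7% higher. Rars had 5154 at day 8 and 8658 at day 6, Rars2 had 902 at day 8 and 1760 at day 6, Iars2 had 732 at day 8 and 1217 at day 6, and Lars2 had 480 at day 8 and 967 at day 6. Wars2 had 449 at day 8 and 201 at day 6. Wars2 (higher) and Lars2 (lower) were 2-fold apart, where 15.3% of all genes were.

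**Figure D4:**
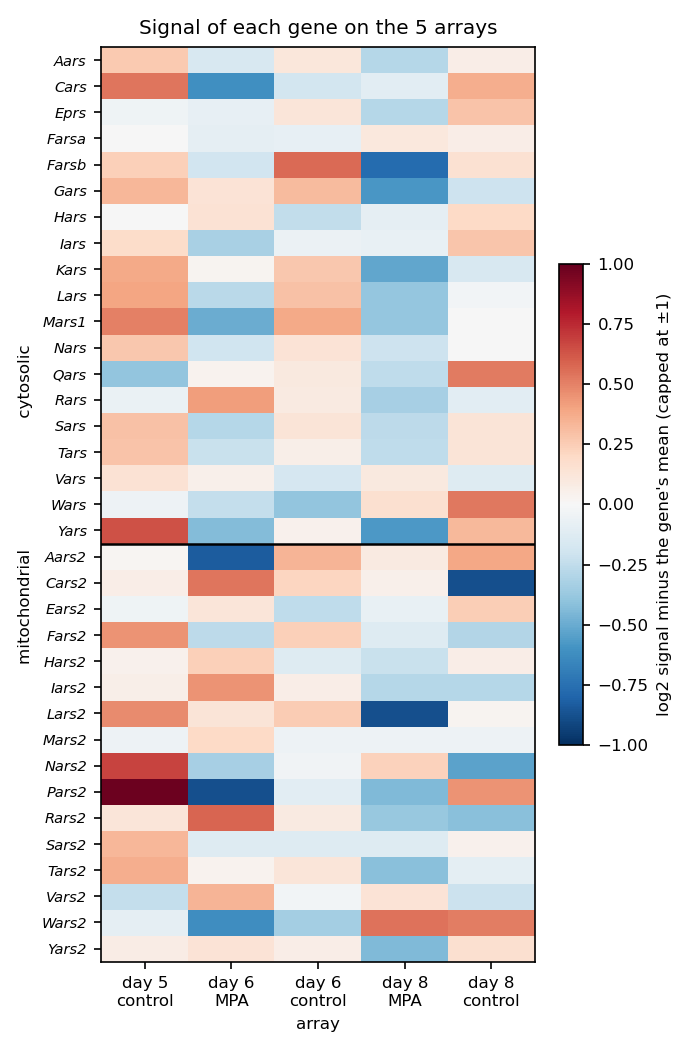
Log2 signal of each synthetase gene on the 5 arrays as the difference from the gene's own mean (red above it, blue below it, capped at 1 either way), with cytosolic genes above the black line. The day 8 MPA column is blue or near white for most cytosolic genes, and Vars, Wars and Farsa are the cytosolic genes above their mean there. The mitochondrial rows show no column that is blue throughout.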

How the data were processed

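Gene expression was measured in 5 samples, 1 per group, grouped by the day and MPA dose the labels give. The labels' protocols describe an Affymetrix 3' IVT labelling that started from 100 ng of RNA. Each probe set has a linear intensity from the authors, computed with MAS5 per the submitters' processing notes, and every array has a 2% trimmed mean of 500. Genes were named through the platform annotation, with 34945 probe sets of 1 symbol, 932 of several (left out) and 64 controls. Of the named probe sets 34741 matched RefSeq. Signals were floored at 86.76 and taken to log2. The MPA effect was fitted on genes that exceeded the floor on 2 or more of the 4 arrays of days 6 and 8, with limma 3.58.1 (R 4.3.3; lmFit, eBayes with trend and robust, Benjamini-Hochberg) and day as a factor, which blocks the same-day arrays. The fit was tested on simulated data, where false calls exceeded the nominal share. Python 3.11.15 with pandas 2.3.3, numpy 2.4.6, scipy 1.17.1 and matplotlib 3.10.9 did the rest. The members, the lists and the ATF4 division were chosen with earlier results of these data known. All members are named, and of each list up to 6 genes with the largest mean MPA difference, not all of which are printed. Atf4, Ddit4, Vldlr and the scaffold genes were named apart from this choice. Promoters come from a RefSeq table in which 12 cytosolic and 14 mitochondrial members were found.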

Additional observations from a re-analysis of the deposited data

Results flagged for a closer look

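Of the synthetase genes 4 had MPA differences of opposite sign at the 2 days, each of 1.2-fold or more, and the difference between the days was not tested. Hars had a log2 difference of 0.39 at day 6 and -0.29 at day 8, and its other probe set had 0.28 and -0.31. Hars2, its neighbour in the genome, had 0.37 and -0.29. Ears2 had 0.37 and -0.32, and Nars2 -0.29 and 0.77. The other Hars2 probe set, above the floor on 4 arrays, did not change sign, with at least 0.15 at day 6 and 0.01 at day 8. A dimmer Ears2 probe set, above it on 3 arrays, was higher at day 8 by 0.52. The 4 genes are 12.1% of the 33 synthetase genes measured at both days. Of all 11007 genes measured at both days, 15.2% (1670) met the same threshold. By any amount 10 of 33 synthetase genes (30.3%) and 46.9% of all genes had opposite signs.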

How the results depend on the processing

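The cytosolic medians of MPA against control kept their sign under 7 other choices of scaling, floor, transform and probe sets. They lay between -0.34 and -0.21 on day 6, and on day 8 between -0.37 and -0.30. With genes of mean signal 300 to 1500 only, which was added after seeing the data, the cytosolic median at day 6 was -0.015. The mitochondrial median at day 6 was -0.0092 with quantile normalization, -0.017 with median centring and -0.0084 with either other floor. At day 8 it was 0.0075 without _s_at, _x_at and _a_at probe sets and 0.00039 with only genes that exceeded the floor on each of the 5 arrays, a restriction added after seeing the data. With the mean over probe sets, control day 8 against day 6 had a cytosolic median of -0.029 and a mitochondrial one of 0.10, and the mitochondrial median was -0.15 for day 8 against day 5. The cause was not tested. In the limma fit 0 synthetase genes passed under any alternative, and at an unadjusted p under 0.05 there were 1 to 5. Without the day term (no replicate block of same-day arrays) this number was 1, without the filter on dim genes 1, and without the suffixed probe sets, where 27 were tested, 2. The 1 gene of all that passed was 0 without the day term, without trend and robust, without the filter, with quantile normalization and with the mean over probe sets. The mean MPA difference kept its sign, under the 6 or 7 of these alternatives that gave a value for the gene, in 16 of 19 cytosolic genes (not Farsa, Hars and Qars) and 11 of 14 mitochondrial ones (not Ears2, Hars2 and Tars2). Qars ran from -0.46 to 0.14. Dim mitochondrial probe sets limit what a difference of 2 arrays can show.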
